A study of Mus musculus with 9 samples.

Results

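The promoters of 8 genes of the mesenchymal state and of the cell's contact with matrix and neighbours were followed in mouse blood progenitors carrying the transcription factor Snai1: Vim, S100a4, Mmp14, Mmp9, Fap, Itgav, Itga2 and Icam2. Each had 1 window in the authors' deposited table, so 8 of its 10271 promoter windows are described here. The assay was ATAC-seq, where Tn5 transposase inserts sequencing adapters into accessible chromatin. The cells were HPC7, a hematopoietic progenitor line derived from mouse embryonic stem cells with the help of an Lhx2 transgene and grown in stem cell factor. All cells carried a retroviral vector named MIG: 3 libraries came from cells with FLAG-tagged wildtype Snai1 (MIG-Snai1, called Snai1 here), 3 from cells with a mutant (MIG-mut5Snai1) and 3 from the empty-vector control (MIG-EV, called EV). The authors' deposited table sets Snai1 against EV only, with 1 mean per group and no value per library, and the mutant was not analysed here. Nothing in the labels ties the replicate libraries to separate transductions or cultures, so the authors' p-values reflect a spread among libraries that may be only technical. The sources used here do not give the vector's promoter or the level of Snai1 protein.

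Snai1 is a zinc finger repressor that binds E-box DNA and recruits histone deacetylases and the demethylase Lsd1, and it is best known for the epithelial-mesenchymal transition, in which cells lose junctions and take up motile, matrix-degrading behaviour. Vimentin and S100a4 are classical products of that state, the membrane protease Mmp14, the secreted gelatinase Mmp9 and the surface serine protease Fap cut matrix, and integrins couple the cell to it. In blood cells the same genes have other uses: Itgav and Itga2 encode integrin chains of platelets and other lineages, and Icam2 is a ligand for leukocyte integrins.

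The 8 genes were chosen by their role and with the change and FDR of this same comparison known, so their values are given as a description. A value below is the authors' log2 concentration, DiffBind's log2 mean of normalized reads in a region, which is not divided by the region's length. A change is Snai1 minus EV of the 2 group values, and a window counts as changed where the authors' FDR is below 0.05. Of all windows in the authors' deposited table, 29.9% passed that threshold, 19.6% higher and 10.3% lower in Snai1, and the median change of all windows was 0.08. Of the 8 windows, 3 were higher (S100a4, Fap and Itgav), 4 were lower (Mmp14, Mmp9, Itga2 and Icam2) and 1, Vim, did not pass. The 8 genes did not share a direction. A marker, a protease and an integrin gene were among the higher windows. Among the lower ones were 2 proteases, another integrin gene and an adhesion ligand. The genes were chosen with these changes known, so this mix does not describe the mesenchymal programme as a whole. The precision of each change is given as an implied SE, worked back by dividing the change by the z value that matches the authors' p-value, since the table has no spread between libraries. In such a population, fewer open cells and less opening per cell cannot be told apart.

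**Figure D1:**
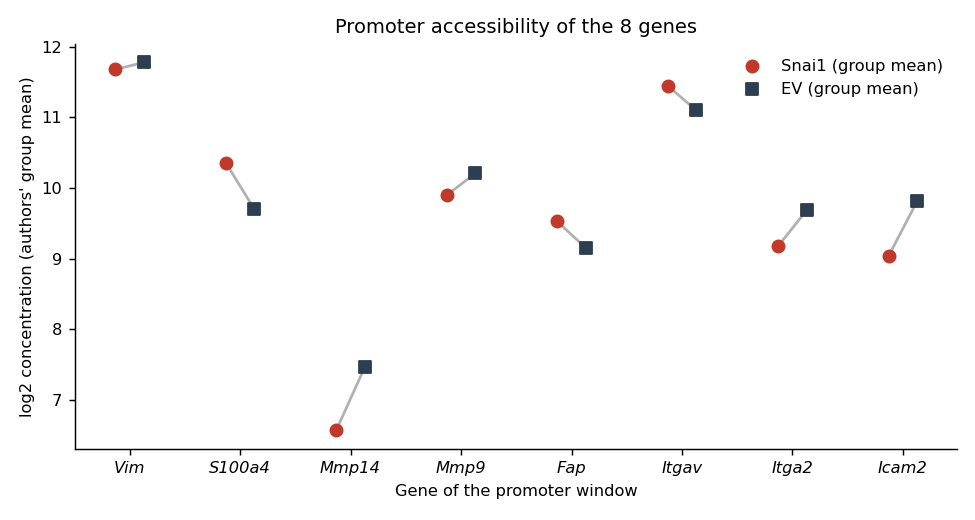
Promoter accessibility of the 8 genes, with the authors' log2 concentration on the vertical axis and 1 red circle (Snai1 group mean) and 1 dark square (EV group mean) per gene. The circle lies above the square for S100a4, Fap and Itgav and below it for the other genes, with the widest gap at Mmp14 (6.57 against 7.47); no error can be drawn because the table has no value per library.

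The windows did not all lie at the annotated end of the gene. Vim and S100a4 started exactly at the RefSeq 5' end, Mmp14 6 bp and Itga2 59 bp inside it. The other 4 lay beyond the 1000 bp limit and were assigned because the gene spans them: Fap at 1488 bp, Itgav at 2094 bp, Icam2 at 5498 bp and Mmp9 at 7893 bp inside the gene boundary. The Itgav window nevertheless sat exactly on a promoter start that RefSeq lists for Itgav. For Fap, Icam2 and Mmp9 the RefSeq promoter set used here had no entry, so their windows could not be compared with a promoter start. Which transcript these windows serve was not tested.

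RefSeq promoter sequences (build GRCm38.p6, which has the coordinates of mm10) were matched for 5 of the 8 genes, from 250 bases before to 50 bases after the start, position 1 being the first transcribed base. They are shown for a pair of genes whose windows were higher and a pair whose windows were lower, and for the related protease gene Mmp15, which had the largest change of the protease genes tested. S100a4 lies at chr3:90603520-90603819, plus strand, Itgav at chr2:83724147-83724446, plus strand, Mmp14 at chr14:54431348-54431647, plus strand, Itga2 at chr13:114932051-114932350, minus strand and Mmp15 at chr8:95352046-95352345, plus strand. Capitals mark matches on either strand to CAGGTG (the E-box read by Snai1, CACCTG on the other strand), the general E-box CANNTG, of which CAGGTG is one form, TATAAA and GGGCGG, the last pair added after the data were seen.
S100a4: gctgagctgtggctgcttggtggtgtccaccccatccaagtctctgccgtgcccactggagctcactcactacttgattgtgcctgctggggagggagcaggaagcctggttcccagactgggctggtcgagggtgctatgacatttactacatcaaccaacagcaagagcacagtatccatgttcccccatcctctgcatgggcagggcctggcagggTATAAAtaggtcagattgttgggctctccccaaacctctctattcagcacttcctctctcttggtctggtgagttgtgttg
Itgav: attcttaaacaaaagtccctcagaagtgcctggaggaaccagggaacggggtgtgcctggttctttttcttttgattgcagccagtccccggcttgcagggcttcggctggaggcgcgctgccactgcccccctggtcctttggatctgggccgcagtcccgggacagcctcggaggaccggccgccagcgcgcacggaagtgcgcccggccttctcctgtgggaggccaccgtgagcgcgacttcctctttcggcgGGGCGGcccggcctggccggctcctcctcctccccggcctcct
Mmp14: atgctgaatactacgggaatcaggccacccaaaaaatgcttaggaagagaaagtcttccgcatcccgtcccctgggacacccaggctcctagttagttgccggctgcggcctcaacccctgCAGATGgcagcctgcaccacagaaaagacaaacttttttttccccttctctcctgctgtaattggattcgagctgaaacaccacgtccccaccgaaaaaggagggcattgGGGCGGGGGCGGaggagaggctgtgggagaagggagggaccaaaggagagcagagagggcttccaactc
Itga2: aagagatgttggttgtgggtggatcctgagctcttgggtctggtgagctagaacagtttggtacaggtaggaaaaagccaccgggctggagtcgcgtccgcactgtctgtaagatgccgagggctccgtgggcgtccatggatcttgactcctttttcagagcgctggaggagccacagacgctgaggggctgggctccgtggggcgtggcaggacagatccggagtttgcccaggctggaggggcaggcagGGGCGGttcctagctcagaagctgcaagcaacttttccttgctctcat
Mmp15: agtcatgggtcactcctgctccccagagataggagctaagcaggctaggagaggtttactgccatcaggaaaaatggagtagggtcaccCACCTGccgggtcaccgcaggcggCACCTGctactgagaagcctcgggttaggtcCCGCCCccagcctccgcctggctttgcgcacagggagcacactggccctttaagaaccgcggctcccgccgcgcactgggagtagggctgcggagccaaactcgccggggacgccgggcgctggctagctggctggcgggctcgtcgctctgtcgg

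CAGGTG or CACCTG was found in 0 of the 5 matched promoters of the 8 genes, against 20.2% of the 32851 promoters of the same length in the RefSeq table. Mmp14 alone of the 5 held a general E-box, CAGATG at position -129, while 72.3% of all promoters hold one. Mmp15 held CACCTG at positions -161 and -137. S100a4 and Vim each held TATAAA, at -31 and -32, as did 13.6% of all promoters. GGGCGG was found at -19 and -13 in Mmp14, at 8 in Itgav and at 3 in Itga2, and in 35.7% of all promoters. The promoters also differed in base composition: S100a4 had 2 CpG dinucleotides in 300 bases and Itgav 24, with 10 in Mmp14, 11 in Vim and 13 in Itga2, against a median of 7 over all promoters. These matches describe letters in a short stretch of each window and say nothing of whether Snai1 was bound there.

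S100a4, which encodes a calcium-binding protein that promotes cell motility, had the largest increase of the 8. Its window (chromosome 3, 90602770 to 90604770) stood at 10.36 in Snai1 and 9.70 in EV in the authors' deposited table, a change of 0.66 (1.58-fold, implied SE 0.09, FDR 9.33e-12). The change stood at the 98.8th percentile of all windows. Among windows of its own length it was at the 25.1st percentile of accessibility in Snai1 and at the 14.5th in EV, so it was a modestly open promoter in both groups. Its neighbours in the S100 gene cluster were higher as well. S100a13, 89.3 kb away, and S100a1, next to it, had changes of 0.57 (FDR 4.6e-11) and 0.54 (FDR 2.55e-09) in the authors' deposited table. These 2 windows start 105 bp apart on opposite strands and share 1101 bp, so they largely count the same reads. On the other side, S100a11 lay 2920 kb away and had a change of 0.15 (FDR 0.12), and S100a10, 34.6 kb beyond it, one of 0.27 (FDR 0.0222). The median change of the 20 windows on either side of S100a4 was 0.08, equal to that of all windows.

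Vim, which encodes the intermediate filament vimentin, was the most open of the 8 within its length class and the 1 that missed the threshold. In the authors' deposited table its window (chromosome 2, 13573311 to 13575311) stood at 11.68 in Snai1 and 11.78 in EV (change -0.10, implied SE 0.07, FDR 0.309). That placed it at the 78.1st percentile of windows of its length in Snai1 and the 83.5th in EV. Its surroundings, however, were mostly on the other side of 0: the median of the 20 windows on either side was 0.185, which left Vim 0.29 below it. When each window was set against that local median and tested again with its implied SE, Vim passed as lower (re-test FDR 0.002, by Benjamini-Hochberg). The nearest windows were Trdmt1, with a change of 0.19, and Hacd1, with -0.25, in the authors' deposited table.

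Of the 3 protease genes among the 8, Mmp14 changed most. This gene encodes a membrane-anchored collagenase that also activates other matrix metalloproteinases. The window (chromosome 14, 54430604 to 54432604) stood at 6.57 in Snai1 and 7.47 in EV in the authors' deposited table, a change of -0.90 (1.87-fold lower, FDR 6.59e-05). It was the least accessible of the 8, at the 2.5th percentile of its length class in Snai1 and the 4.9th in EV, and its implied SE of 0.20 was the widest. In the 5% of windows with like concentration, 16.5% changed by at least as much in either direction, so a change of this size was not rare among weakly open promoters. Both flanking windows lay on the other side of 0 in the authors' deposited table, Mrpl52 at 0.19 from 4.7 kb away and Lrp10 at 0.20 from 32.5 kb.

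Mmp9, which encodes a secreted gelatinase of neutrophils and macrophages, had a smaller change. In the authors' deposited table its window (chromosome 2, 164947219 to 164949219) stood at 9.90 in Snai1 and 10.21 in EV (change -0.31, 1.24-fold lower, implied SE 0.10, FDR 0.0131), which did not pass at an FDR of 0.01. The next window along the chromosome, inside the neuronal transporter gene Slc12a5, 19.8 kb away, had a larger change of -1.24 (FDR 1.55e-09). On the other side, Zfp335 had 0.14 (FDR 0.12). Fap, which encodes a surface protease of activated fibroblasts, went the other way: its window (chromosome 2, 62573921 to 62575021) stood at 9.53 in Snai1 and 9.15 in EV in the authors' deposited table (change 0.38, 1.30-fold, implied SE 0.11, FDR 0.00367). The windows around Fap had a median of 0.17, and set against it the change of 0.21 was no longer called (re-test FDR 0.217).

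The integrin genes Itgav and Itga2 moved in opposite directions. Itgav encodes the alpha chain of vitronectin and fibronectin receptors. In the authors' deposited table its window (chromosome 2, 83723397 to 83725397) stood at 11.45 in Snai1 and 11.10 in EV, a change of 0.35 (1.27-fold, implied SE 0.07, FDR 7.73e-06). It was at the 68.2nd percentile of its length class in Snai1 and the 56.2nd in EV. Its surroundings had a median of 0.145; against it, the change was 0.21 and the window still passed (re-test FDR 0.0283). Itga2 encodes the collagen-binding alpha chain found on platelets and epithelia. Its window (chromosome 13, 114931941 to 114933041) stood at 9.18 in Snai1 and 9.69 in EV in the authors' deposited table (change -0.51, 1.42-fold lower, implied SE 0.12, FDR 0.000116). The flanking windows of Mocs2 (0.15, FDR 0.175) and Pelo (0.03, FDR 0.83) did not pass there.

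Icam2, the adhesion ligand for leukocyte integrins that is carried by endothelial cells, platelets and leukocytes, had the lowest FDR of the 4 lower windows. In the authors' deposited table its window (chromosome 11, 106382541 to 106383641) stood at 9.04 in Snai1 and 9.82 in EV, a change of -0.78 (1.72-fold lower, implied SE 0.11, FDR 1.49e-10). Of the 5% of windows with like concentration, 2.92% changed by at least as much in either direction. Its neighbourhood median was 0.00. The flanking windows, of the B cell receptor gene Cd79b and the stress sensor gene Ern1, had changes of -0.19 (FDR 0.576) and 0.04 (FDR 0.671) in the authors' deposited table.

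**Figure D2:**
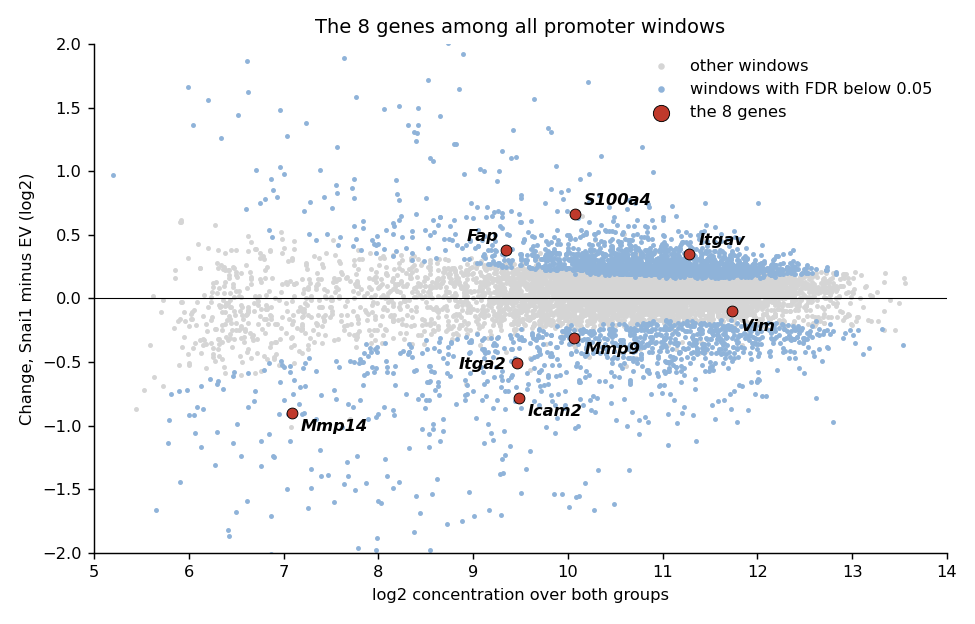
Change (Snai1 minus EV, log2) against log2 concentration over both groups for the promoter windows of the authors' deposited table, with windows below FDR 0.05 in blue, the others in grey and the 8 genes in red; 72 windows lie outside the axes. S100a4, Fap and Itgav lie above the grey band, Vim lies inside it, and Mmp14 is the least accessible of the 8.

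Set against the median of up to 20 windows on either side, 2 of the 8 were higher and 5 lower in the re-test. Fap was no longer called and Vim was added. Itga2 had only 10 windows on its higher-coordinate side. Over all windows that re-test called 13.4%, with 5.09% higher and 8.33% lower. With the median of all windows subtracted instead, the calls of the 8 were again 3 higher and 4 lower, against 21.0% of all windows. The split of all calls depended on this centre: 2015 windows were higher and 1060 lower as deposited, with 741 higher and 1416 lower with the median of all windows subtracted, and 523 higher and 856 lower with the local median subtracted. The distances from the local median were -1.04 for Mmp14, -0.78 for Icam2, -0.61 for Itga2, -0.39 for Mmp9 and 0.58 for S100a4. The local medians of these 5 windows ran from 0.00 to 0.14, around the 0.08 of all windows.

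**Figure D3:**
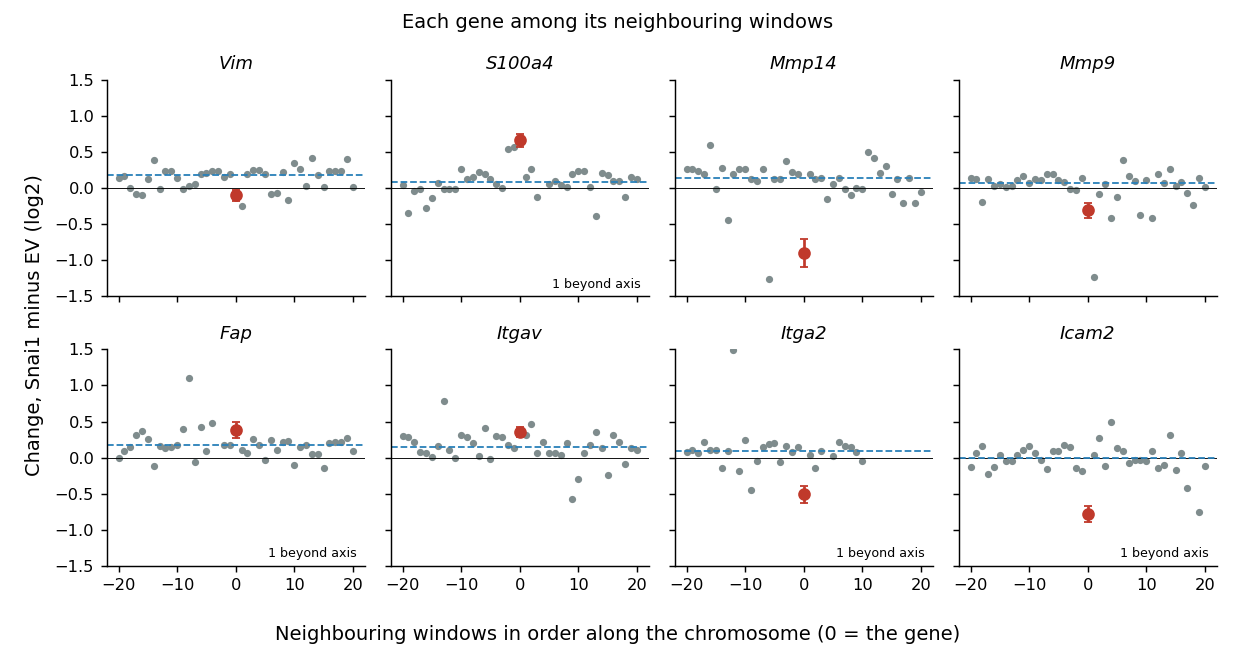
Change (Snai1 minus EV, log2) of each of the 8 genes (red, with its implied SE) and of up to 20 neighbouring windows on either side (grey) in their order along the chromosome; the dashed line is the neighbours' median, and points beyond the axis are counted in the panel. Mmp14, Itga2 and Icam2 lie apart from most of their neighbours, S100a4 is joined by the adjacent S100a13 and S100a1 windows, and Fap and Itgav lie near the upper edge of theirs.

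The wider families of these genes were drawn up as lists, with the window of highest concentration standing for a gene with several. Integrin subunits had a window for 17 of 26 genes. Of these, 8 rose, 1 fell and 8 stayed above the FDR threshold by the authors' deposited table (52.9% called, against 29.9% of all windows), with a median change of 0.30 against 0.08. All 9 calls were alpha chains. Of 12 alpha chains, 10 had a change above 0, and of 5 beta chains none passed, their changes running from -0.16 to 0.14 with a lowest FDR of 0.18. Itga2 was the single integrin gene that fell. With the local median subtracted, 4 integrin genes were higher and 1 lower, and with the median of all windows subtracted 6 were higher and 1 lower.

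Itga2b, the platelet fibrinogen receptor chain, had a change of 0.30 (FDR 0.000327), and Itga4, which pairs with beta chains to bind Vcam1, one of 0.41 (FDR 0.000665) in the authors' deposited table. In the authors' deposited table a run of leukocyte integrin genes on chromosome 7 was also higher. Itgax, a chain of dendritic cells and macrophages, stood at 9.31 in Snai1 and 8.33 in EV in the authors' deposited table (change 0.98, implied SE 0.30, FDR 0.00664). In the same table Itgad changed by 0.61 (FDR 0.000435), Itgam, a myeloid chain, by 0.51 (FDR 0.028) and Itgal by 0.37 (FDR 0.00043), all 4 within 0.88 Mb. With the local median subtracted, Itgal (re-test FDR 0.0714), Itgam (0.153), Itga4 (0.0674) and Itga5 (0.422) were no longer called. Of 18 markers of macrophages and mast cells, 9 had a window, of which 5 rose, 0 fell and 4 did not pass by the authors' deposited table, against 19.6% of all windows higher. Gzmb (1.21), Cd14 (1.03) and Mitf (0.38) were among those that rose. In the same table Cd68 had -0.23 (FDR 0.101), Cpa3 0.21 (FDR 0.612), Hdc 0.17 (FDR 0.553) and Csf1r 0.04 (FDR 0.88). With the local median subtracted, 3 of the 9 were higher, against 5.09% of all windows, and Cd68 was lower. Itgam is in both lists, and the part of such cells in the integrin result was not tested.

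The partner chains of Itgav and Itga2 did not pass the threshold. In the authors' deposited table Itgb1, the partner of Itga2 and one partner of Itgav, had a value of 0.14 (FDR 0.18), and Itgb3, the beta chain of the classical vitronectin receptor, one of 0.03 (FDR 0.83). Itgb5, another partner of Itgav, had -0.16 (FDR 0.33) in surroundings with a median of -0.355, and no window was assigned to Itgb8. The receptor of Icam2 on leukocytes joins Itgal, which rose, to Itgb2, which had 0.10 (FDR 0.442).

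**Figure D4:**
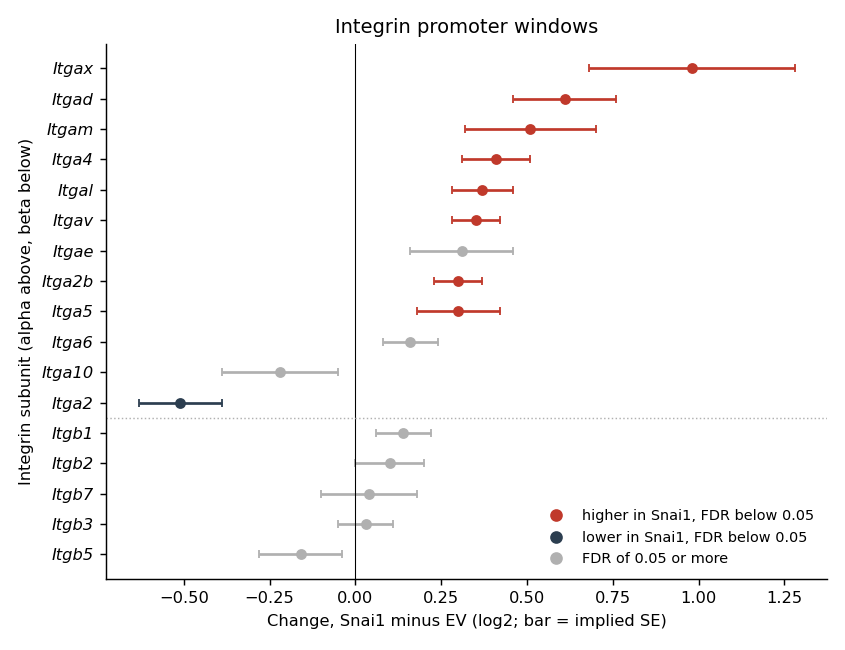
Change (Snai1 minus EV, log2, with implied SE) at the promoter window of each of 17 integrin subunit genes, alpha chains above and beta chains below, coloured by the authors' FDR. Of the alpha chains 8 were higher and Itga2 was lower, and the 5 beta chains lay between -0.16 and 0.14.

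Of 48 matrix protease and inhibitor genes, 23 had a window. Of these, 2 rose, 4 fell and 17 stayed above the threshold by the authors' deposited table. The share called was 26.1%, against 29.9% of all windows, and the median change was 0.01. The largest change was at Mmp15, a membrane-type protease like Mmp14, whose window stood at 7.58 in Snai1 and 9.35 in EV (change -1.77, implied SE 0.13, FDR 3.06e-38). Adamts4, an aggrecan-cleaving protease, changed by -0.54 (FDR 0.00902) in the authors' deposited table, in surroundings with a median of -0.20, and was not called with that median subtracted (re-test FDR 0.198). Fap, above, and Adamts10 were the 2 that rose, and neither was called with the local median subtracted. Reck, a membrane inhibitor of Mmp14 and Mmp9, had -0.15 (FDR 0.159), and no window was assigned to Mmp2, Timp1, Timp2 or Timp3, which act with them.

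Of 37 mesenchymal genes and regulators of the transition, 13 had a window. Of these, 4 rose and 0 fell by the authors' deposited table (30.8% called, median -0.01). Of all windows, 29.9% were called, 19.6% higher and 10.3% lower. With either median subtracted, 2 were higher and 1 lower, but the lower gene differed. It was Vim with the local median and Tgfbr1 with the median of all windows (re-test FDR 0.00772), where Vim did not pass (re-test FDR 0.0667). Lgals1, which encodes the secreted lectin galectin-1, had a larger change than S100a4, at 10.80 in Snai1 and 9.68 in EV (change 1.12, 2.17-fold, implied SE 0.09, FDR 6.35e-37). The TGF-beta receptor gene Tgfbr2 (0.20, FDR 0.0361) and the cytoskeletal linker gene Msn (0.21, FDR 0.0413) passed narrowly in the authors' deposited table and were not called with either median subtracted. Of 6 genes in the S100 list with a window, 4 rose and 1 fell (83.3% called, against 29.9% of all windows, median 0.41). The windows of S100a1 and S100a13 largely count the same reads, and both enter these counts and the median. The one that fell, S100pbp, encodes a binding protein and not an S100 protein. Of 5 intermediate filament genes with a window, 1 passed by the authors' deposited table (20.0% called, against 29.9% of all windows). It was Lmna, with a change of 0.76 (FDR 0.00149). Its window lay 6580 bp inside the gene boundary, exactly on a promoter start that RefSeq lists for Lmna.

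Genes of immunoglobulin and selectin adhesion had a window for 14 of 26. Of these, 6 fell and 3 rose by the authors' deposited table (64.3% called, against 29.9% of all windows, median -0.15). Besides Icam2, the lowest FDR values belonged to Cd47 (-0.95), the junction gene F11r (-0.51) and Cd34 (-0.39), a progenitor surface protein. Cd47 lay in surroundings with a median of -0.655, F11r of -0.235 and Cd34 of -0.255, and those of Icam2 had 0.00. With the local median subtracted, 4 genes of this list were lower and 1 higher, against 8.33% and 5.09% of all windows. Icam2, F11r (re-test FDR 0.00803) and Cd47 (0.0304) were among the lower ones, and Cd34 was not called (0.253). The adaptors behind integrins were split, 5 higher and 5 lower of 27 in the authors' deposited table (37.0% called). Of all windows, 29.9% were called, 19.6% higher and 10.3% lower. Lyn, a Src family kinase, rose by 0.73 in surroundings with a median of 0.55, and Apbb1ip, which links Rap1 to talin, rose by 0.41. Parvb, an integrin-linked kinase partner, fell by 1.29. Rapgef3, a cyclic AMP-activated exchange factor for Rap1, fell by 0.31. With the local median subtracted, 1 adaptor gene was higher and 5 were lower, against 5.09% of all windows higher and 8.33% lower.

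**Figure D5:**
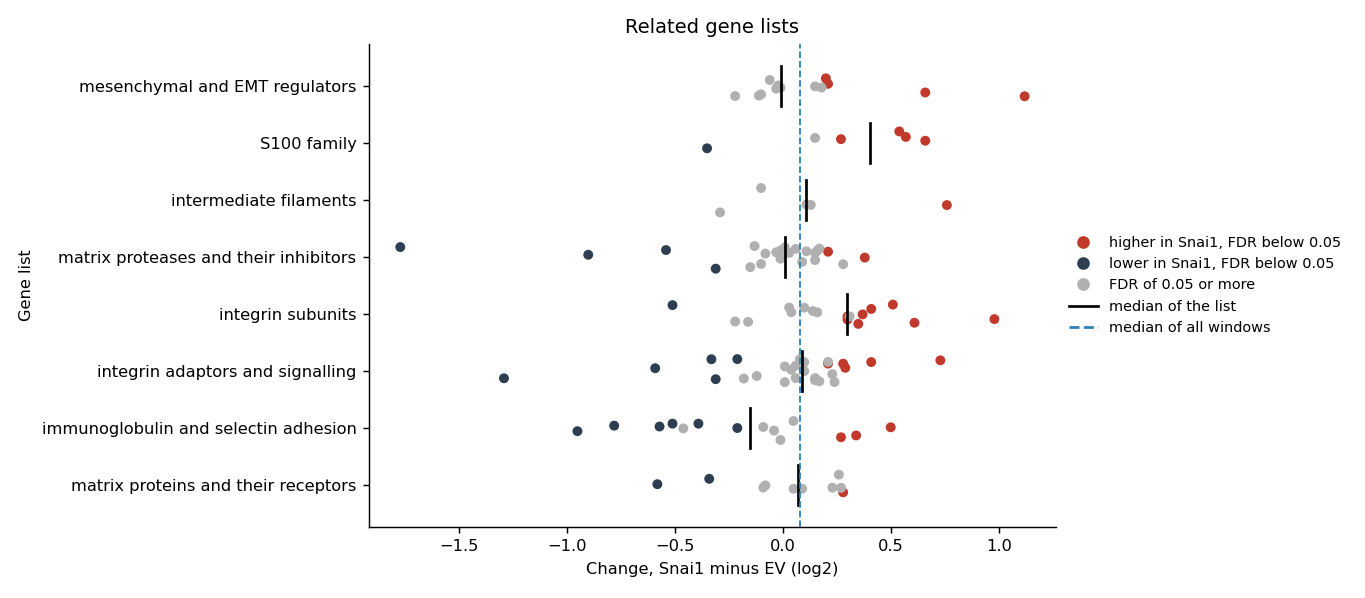
Change (Snai1 minus EV, log2) of every gene with a window in 8 lists, 1 point per gene coloured by the authors' FDR; black bars are list medians, and the dashed line is the median of all windows (0.08). Integrin subunits (median 0.30) and the S100 list (0.41, with the overlapping S100a1 and S100a13 windows both counted) lie to the right of that line. Immunoglobulin and selectin adhesion genes (-0.15) lie to its left.

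Most markers of the labelled cell type had a window, and no threshold for an open promoter was set. Of 17 hematopoietic progenitor genes, 15 had a window, and none was assigned to Erg or Lhx2, while 44.6% of all protein-coding genes had one. Of these 15, 5 rose and 2 fell by the authors' deposited table (46.7% called). The shares over all windows were 29.9% called, 19.6% higher and 10.3% lower. With the local median subtracted, 1 was higher (Tal1) and 0 lower, against 5.09% and 8.33% of all windows. The 2 that fell as deposited were Runx1 (-0.61, in surroundings with a median of -0.64) and Cd34 (-0.39). Tal1 (0.41) and Meis1 (0.26) led those that rose, and the stem cell factor receptor gene Kit had -0.08 (FDR 0.349). Windows were assigned to 3 of 15 fibroblast markers, 1 of 19 epithelial markers and 6 of 15 endothelial markers. The 1 epithelial gene, Ocln of the tight junction, stood at 4.18 in Snai1 and 8.99 in EV (change -4.81, FDR 2.19e-95) in the authors' deposited table. Fap was the 1 fibroblast marker that rose (33.3% called, against 29.9% of all windows). Pdgfrb had 0.07 (FDR 0.671) and Tagln -0.01 (FDR 0.958), and the collagen genes of that list had no window assigned. Among endothelial markers Icam2 fell and Pecam1 (0.50, FDR 0.000114) rose in the authors' deposited table (33.3% called, near the share of all windows). Any part of such cells in the changes at Fap and Icam2 was not tested.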

How the data were processed

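ATAC-seq was made from HPC7 cells in 3 groups of 3 libraries, grouped by their titles. The submitters' processing notes name mm10 and the tools DiffBind, Picard, Bowtie2 and fastp. The sources used here do not give versions, peak calling, any Tn5 read shift, scaling or library depth, so depth is unknown. The authors made log2 concentrations per group and a log2 fold (EV minus Snai1; turned here), per the file headers. The authors' p-value per window comes from their comparison of the groups, and their FDR adjusts it over the windows, per the file headers. Of 10274 rows, 3 exact repeats were dropped. Windows of 2001 bp were read as plus-strand starts (1000 bp in) and those of 1101 bp as minus-strand starts (100 bp in): 6641 starts equalled a RefSeq promoter start, against 1 under the opposite reading. A window took the gene with its 5' end within 1000 bp on that strand (protein-coding first), otherwise the 1 gene spanning it; 48 had none. Strand came from the RefSeq promoter table, and genes without an entry were allowed either strand.

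The number of columns with values per sample was 0, so no count model or test across libraries was run. Re-tests subtracted a centre, divided by the implied SE (changes under 0.1 or p of 0 took the median of 20 concentration bins) and adjusted by Benjamini-Hochberg over all windows; they were tested on simulated data. Named genes were the 8, their nearest windows, their partners, and up to 4 called genes of smallest FDR per list (with none called, the 2 of smallest p). Further names (S100a10 and S100a11, Itga4, Itgam, Itgax, Itgad, Adamts10, Itga5, Kit, Cd68, Plod1, Plod2, Plod3, Cpa3, Hdc, Csf1r, Tagln and Tgfbr1) were picked after their values were seen. Genes and the 13 lists were chosen with earlier results of these data known. Python 3.11.15, pandas 2.3.3 and scipy 1.17.1 were used.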

Additional observations from a re-analysis of the deposited data

How the results depend on the processing

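The direction of all 8 changes was the same under both other centres, and FDR thresholds of 0.01 and 0.1 altered the call of Mmp9 alone (not called at 0.01). With up to 10 or up to 50 windows on either side in place of 20, the 8 distances from the local median moved by less than their implied SE. For Itga2, which had only 10 windows on its higher-coordinate side, the wider settings added windows on the other side alone. Counts of higher windows were the least stable: against 2015 in all, 741 were called with the median of all windows subtracted, 523 with the local median and 1152 at FDR 0.01. With the median of all windows and with the local median subtracted, higher genes numbered 21 and 16 over all lists (36 as deposited), 2 and 2 of the mesenchymal list (4), 1 and 0 of the proteases (2) and 1 and 1 of immunoglobulin and selectin genes (3), and lower mesenchymal genes 1 and 1 (0). Higher integrin genes numbered 4 with the local median (8). With windows within 100 bp of an annotated start alone, 0 protease genes were higher and 2 lower (2 and 4), since Fap, Adamts10, Mmp9 and Adamts4 were left out. The promoter set had no entry for these genes, so they were placed by the gene boundary alone. Whether their windows lie at a promoter start is therefore not known. The cause of the other shifts was not tested. No paired analysis was possible because the table has no column per library, and for the same reason no replicate could be left out.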

Other observations

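Genes of the matrix itself were mostly without a window: 10 of 40 had one. By the authors' deposited values 2 fell and 1 rose (30.0% called, against 29.9% of all windows). The laminin chain genes Lamc1 (11.69 in Snai1 and 12.27 in EV, change -0.58, FDR 2.51e-10) and Lamb2 (8.80 in Snai1 and 9.14 in EV, change -0.34, FDR 0.0104) were the 2 that fell, Lamc1 in surroundings with a median of -0.18 and Lamb2 in surroundings with a median of 0.13. Hmmr, which encodes a hyaluronan-binding protein of the mitotic spindle, had a change of 0.28 (FDR 0.000642) and was the 1 that rose. The lysyl hydroxylase genes Plod1, Plod2 and Plod3, which modify collagen, had 0.27, 0.23 and 0.05 and did not pass as deposited. With the local median subtracted, 1 gene of this list was higher and 3 were lower, against 5.09% and 8.33% of all windows. Hmmr was then no longer called (re-test FDR 0.193), and Plod1 was the higher one (0.0495).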
